A study of Mus musculus with 9 samples.

Results

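The levels of 10 enzyme genes, which make serine, move carbon units between folates and make asparagine, were compared in a mouse podocyte line under high glucose and under advanced glycation end products. The genes, Phgdh, Psat1, Psph, Shmt1, Shmt2, Mthfd1, Mthfd1l, Mthfd2, Aldh1l2 and Asns, were chosen by symbol from a table of 55385 genes, and each symbol had exactly 1 row. RNA was sequenced from 9 libraries of the line that the labels name MCP5, with a wild-type genotype throughout. Podocytes are the epithelial cells that wrap the glomerular capillaries. The 3 groups of 3 libraries were an untreated control (named blank), glucose at 50 mmol/L (high glucose), and sugar-modified proteins, the advanced glycation end products or AGEs, at 400 µg/mL. MCP5 is 1 cell line, so all groups share 1 source of cells. The sources used here do not give the treatment time or an osmotic control. The libraries are numbered 1 to 3 in each group, but nothing states that they came from separate cultures. Every p-value therefore reflects the spread among libraries that may be technical repeats.

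Serine is made from a glycolytic intermediate in 3 steps, catalysed by PHGDH, PSAT1 and PSPH. Serine hydroxymethyltransferases then pass a carbon unit from serine to tetrahydrofolate and release glycine, SHMT1 in the cytosol and SHMT2 in mitochondria. Folate enzymes of the MTHFD and ALDH1L families change the oxidation state of that unit or release it, and the units feed purine, thymidylate and methionine synthesis. ASNS makes asparagine from aspartate and glutamine. Many of these genes are known targets of ATF4, a transcription factor translated under amino acid shortage and endoplasmic reticulum stress, which binds C/EBP-ATF response elements in DNA.

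The Asns promoter is the textbook example of such an element, so its RefSeq window is shown first, with the letters TGATGNAA (N is any base) searched in all promoters. The window lies at chr6:7693160-7693459 of GRCm38.p6, on the minus strand, and is read 5′ to 3′ along the gene, from 250 bases before the annotated start to 50 bases from it. Capitals mark a match to TGATGNAA at positions -23 to -16 and a match to GTTACA at positions -3 to 2. Position 0 is the first base after the 250 upstream bases, by the RefSeq start. The gene span given for Asns further on begins upstream of that, at 7693254 on the minus strand. By that start both matches lie inside the gene. GTTACA was added to the search after the sequence was seen, as the companion site described for this gene.
Asns: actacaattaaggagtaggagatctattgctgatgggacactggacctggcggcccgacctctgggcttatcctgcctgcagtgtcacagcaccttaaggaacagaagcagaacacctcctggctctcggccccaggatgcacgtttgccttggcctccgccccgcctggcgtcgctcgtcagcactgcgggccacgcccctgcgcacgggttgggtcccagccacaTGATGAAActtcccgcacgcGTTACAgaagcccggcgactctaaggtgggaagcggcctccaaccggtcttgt

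Of the 10 enzymes, 9 had a window in the RefSeq table (10 windows, since Psat1 has 2), and Aldh1l2 was not matched. Asns was the only one of the 9 with TGATGNAA on either strand. Of all 32851 windows, 3.97% held TGATGNAA and 8.25% held GTTACA. The stricter TGATGCAA, whose matches are all matches of TGATGNAA too, and the palindrome TGACGTCA were in 0.895% and 1.79% of windows and in no window of the 9 enzymes. Within the stress-response and amino acid genes that were also searched (Atf4, Ddit3, Trib3, Chac1, Cth, Pycr1, Aldh18a1 and Atf3), 4 held TGATGNAA. Their matches are set beside that of Asns as runs of 28 bases, each read 5′ to 3′ on the strand that carries the match, with the match in capitals. The GRCm38.p6 positions are chr6:7693215-7693242 (minus strand) for Asns, chr1:191183426-191183453 (plus) for Atf3, chr2:119351039-119351066 (minus) for Chac1, chr2:152344029-152344056 (plus) for Trib3 and chr11:120643834-120643861 (minus) for Pycr1.
Asns: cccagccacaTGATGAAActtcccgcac
Atf3: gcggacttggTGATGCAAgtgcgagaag
Chac1: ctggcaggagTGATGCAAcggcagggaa
Trib3: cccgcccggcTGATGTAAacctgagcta
Pycr1: gccctgtgtaTGATGCAAtgcacaaggc
Asns carries A, Trib3 carries T and the other 3 carry C at the variable base. A match in letters is a description of these windows, and binding was not measured.

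Depth was 46284878 to 77242281 counts per library, and 17680 genes passed the filter on low counts, all 10 enzymes among them. On the first principal component (35.2% of the variance of log2 CPM), the 3 high glucose libraries lay at 100 to 110 and the other 6 at -55.9 to -45.6. AGEs library 3 stood apart on the second component (13.3%), at 109 against -64.4 to 15.9 for the other 8. Of the podocyte markers listed, Foxc2, Lmx1b and Cdkn1c had 0 counts in all libraries, Wt1 had 11 counts in all, and Nphs1, Synpo and Podxl were present.

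All 10 enzymes were lower in high glucose than in control. Levels are given as CPM, counts scaled to library size with TMM factors. A gene was called when edgeR's quasi-likelihood test, two-sided and adjusted by Benjamini-Hochberg over all 17680 genes, gave an adjusted p under 0.05. All 10 were called, in a comparison where 39.3% of all genes were called in either direction and 19.7% were called lower. Of the 10, 8 were called and at least 2-fold lower, against 5.3% of all genes. In all 10 the high glucose libraries lay below every control library, which held for 25.8% of all genes. The median log2 fold change was -1.54 over the 10 enzymes and 0.03 over all genes. Over all genes edgeR called 3466 higher and 3480 lower, whereas limma on log2(FPKM + 1) called 5237 higher and 2400 lower, with medians of 0.08 (pseudocount 1) and 0.17 (pseudocount 0.1) over all genes. On those scales all 10 enzymes were still called lower, with medians of -1.31 and -1.36.

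**Figure D1:**
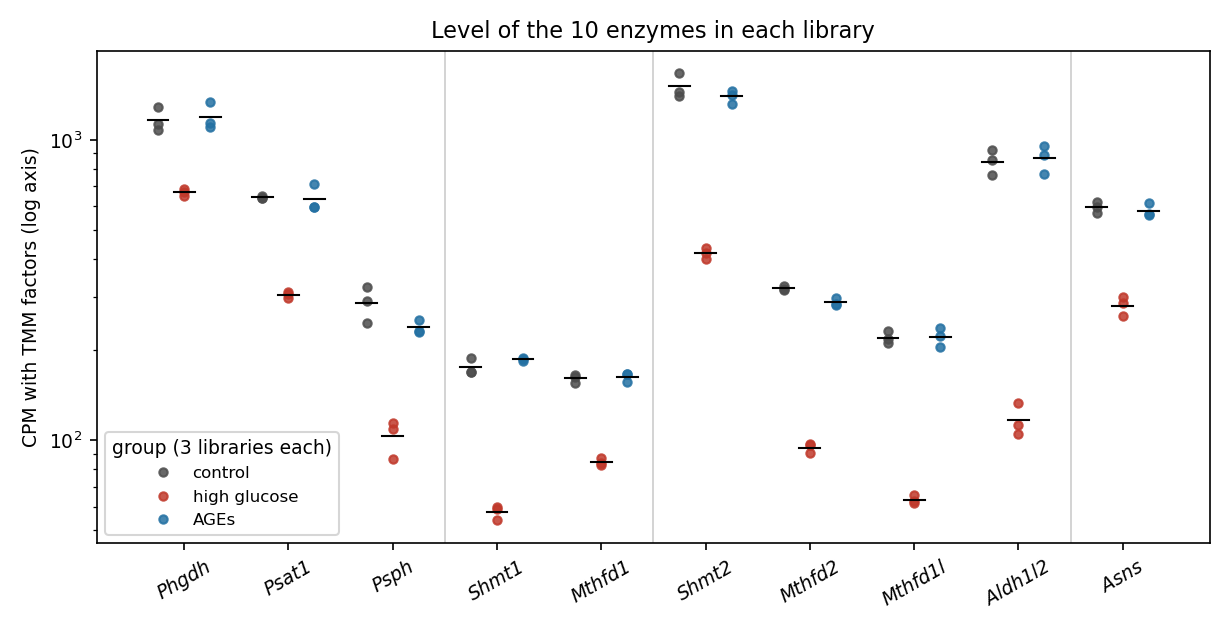
Level of each enzyme in every library, as CPM with TMM factors on a log axis, with 1 point per library and a bar at each group's mean (3 libraries a group). The 3 red high glucose points of each gene lie below all 6 points of the other groups, by the widest margin for Aldh1l2, while control and AGEs points lie side by side.

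The serine synthesis genes fell together, and the first of them fell least. Phgdh (ENSMUSG00000053398, chr3:98313170-98339990, minus strand, 12 exons) encodes the dehydrogenase that draws phosphoglycerate from glycolysis. Its level was 1131, 1079 and 1282 CPM in the control libraries and 650.4, 683 and 672 CPM under high glucose. The high glucose libraries lay close together and well below the lowest control, and the fall was 1.74-fold (log2 fold change -0.80, SE 0.09, adjusted p 0.000138). Its processed copy Phgdh-ps1 had 20 counts in the 9 libraries together.

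Psat1 (ENSMUSG00000024640, chr19:15904678-15947337, minus strand, 9 exons), the aminotransferase of the second step, stood at 638, 641 and 651 CPM in control and 310.1, 306 and 297 CPM under high glucose. The spread within each group was a few CPM, and the groups were far apart. The fall was 2.11-fold (95% interval 1.87 to 2.38; adjusted p 1.07e-05).

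Psph (ENSMUSG00000029446, chr5:129765558-129787449, minus strand, 8 exons), the phosphatase of the last step, stood at 322, 244 and 289.9 CPM in control and 86.4, 114 and 109 CPM under high glucose. It varied more between replicates than the other serine genes, and its groups still did not overlap. The fall was 2.77-fold (95% interval 2.27 to 3.38; adjusted p 2.97e-05). Psph shares 452 bases with Cct6a on the other strand, a chaperonin subunit gene with 384324 counts in all against 124483 for Psph, and the sources used here do not say whether counting used strand. Cct6a changed far less, with a log2 fold change of -0.24.

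The cytosolic folate enzymes fell by unequal amounts. Shmt1 (ENSMUSG00000020534, chr11:60788104-60811265, minus strand, 12 exons), the cytosolic serine hydroxymethyltransferase, stood at 169, 168 and 188 CPM in control and 58.7, 59.9 and 54.0 CPM under high glucose. The lowest control library stood far above the highest high glucose library. The fall was 3.04-fold (95% interval 2.72 to 3.41; adjusted p 8.92e-07). Shmt1 overlaps Smcr8 on the other strand by 184 bases, and Smcr8, with 60550 counts against 83531, had a log2 fold change of -0.70.

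Mthfd1 (ENSMUSG00000021048, chr12:76255298-76319803, plus strand, 28 exons), the cytosolic enzyme with 3 activities that interconverts and makes formyl-tetrahydrofolate, stood at 154, 165 and 163 CPM in control and 87.3, 83.7 and 82.7 CPM under high glucose. With Phgdh it was 1 of the 2 enzymes that fell by less than 2-fold. The log2 fold change was -0.93 (SE 0.063, adjusted p 8.1e-06), a fall of 1.72-fold to 2.10-fold by the 95% interval.

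The mitochondrial folate enzymes had the 4 largest falls of the 10, an order that was tested only through the ratios given further on. Shmt2 (ENSMUSG00000025403, chr10:127517123-127522444, minus strand, 12 exons), the mitochondrial serine hydroxymethyltransferase, stood at 1446, 1403 and 1667 CPM in control and 419, 436 and 401 CPM under high glucose. Control library 3 was the highest, and all high glucose libraries lay far below all controls. The fall was 3.60-fold (95% interval 3.17 to 4.08; adjusted p 7.72e-07).

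Mthfd2 (ENSMUSG00000005667, chr6:83305691-83317606, minus strand, 8 exons), the mitochondrial dehydrogenase and cyclohydrolase abundant in proliferating cells, stood at 327, 319.6 and 317 CPM in control and 97.1, 95.9 and 90.3 CPM under high glucose. Replicates of Mthfd2 agreed within a few percent, which gave it the smallest SE of the 10 (0.060 on the log2 scale). The log2 fold change was -1.77 (adjusted p 2.16e-07), a fall of 3.09-fold to 3.74-fold by the 95% interval.

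Mthfd1l (ENSMUSG00000040675, chr10:3973118-4167081, plus strand, 28 exons), the mitochondrial synthetase that releases formate from formyl-tetrahydrofolate, stood at 216, 211 and 231 CPM in control and 61.8, 65.5 and 62.7 CPM under high glucose. Its fall was 3.47-fold (log2 fold change -1.79, SE 0.075, adjusted p 6.06e-07), close to that of Mthfd2.

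Aldh1l2 (ENSMUSG00000020256, chr10:83487450-83534140, minus strand, 23 exons), the mitochondrial formyl-tetrahydrofolate dehydrogenase, which releases the carbon unit as carbon dioxide and makes NADPH, stood at 856, 922 and 760.4 CPM in control and 105, 112 and 132 CPM under high glucose. The fall was 7.27-fold (log2 fold change -2.86, SE 0.12, 95% interval -3.14 to -2.59, adjusted p 7.4e-07). This was the largest change of the 10 and the 170th lowest log2 fold change of the 17680 genes. Aldh1l2 overlaps D10Wsu102e on the other strand by 1056 bases. D10Wsu102e had 100727 counts against 364754 and a log2 fold change of -0.66.

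Asns (ENSMUSG00000029752, chr6:7675169-7693254, minus strand, 12 exons), whose promoter is printed above, stood at 596, 621 and 571 CPM in control and 285, 298 and 258 CPM under high glucose. All 3 high glucose libraries lay well below the lowest control. The fall was 2.13-fold (log2 fold change -1.09, SE 0.074, adjusted p 7.94e-06), close to that of Psat1 and smaller than that of each mitochondrial enzyme.

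AGEs at 400 µg/mL left these genes near control. None of the 10 was called in AGEs against control by edgeR, in a comparison where 0.0848% of all genes (15) were called. At an unadjusted p under 0.05 stood 1 of the 10, Mthfd2, against 12.4% of all genes. DESeq2, run as an alternative, also called none of the 10. The median log2 fold change was -0.01 over the 10 and -0.00 over all genes. Groups that did not overlap were likewise seen for Mthfd2 alone, against 19.2% of all genes in either direction.

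The intervals set how large a change the AGEs comparison leaves room for. Mthfd2 stood at 283, 283 and 297 CPM in the AGEs libraries, each below the lowest control at 317 CPM, a log2 difference of -0.16 (95% interval -0.29 to -0.03, unadjusted edgeR p 0.0238, adjusted p 0.353). Psph had the largest estimate, -0.27 (95% interval -0.55 to 0.02, adjusted p 0.423), with 231, 252 and 229 CPM in AGEs. Both are differences that did not pass the adjusted threshold. In the AGEs libraries Phgdh stood at 1099, 1135 and 1338 CPM, Psat1 at 595, 597 and 713 CPM and Shmt2 at 1318, 1453 and 1411 CPM. Shmt1 stood at 188, 184 and 187 CPM, Mthfd1 at 156, 166 and 166 CPM and Mthfd1l at 222, 236 and 205 CPM. Each of these sets overlapped with the control libraries. For the 8 enzymes other than Mthfd2 and Psph, estimates ran from -0.11 (Shmt2) to 0.09 (Shmt1). In percent of the control level, the 95% interval was -11.3 to 17.9 for Phgdh, -12.4 to 11.2 for Psat1, -8.24 to 11.6 for Mthfd1 and -10.1 to 12.7 for Mthfd1l. It was -18.0 to 4.66 for Shmt2, -4.78 to 18.8 for Shmt1, -14.0 to 23.0 for Aldh1l2 and -13.1 to 9.12 for Asns. A p above the threshold does not show that levels were equal, and the intervals give the range of change that 3 libraries a group leave possible.

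**Figure D2:**
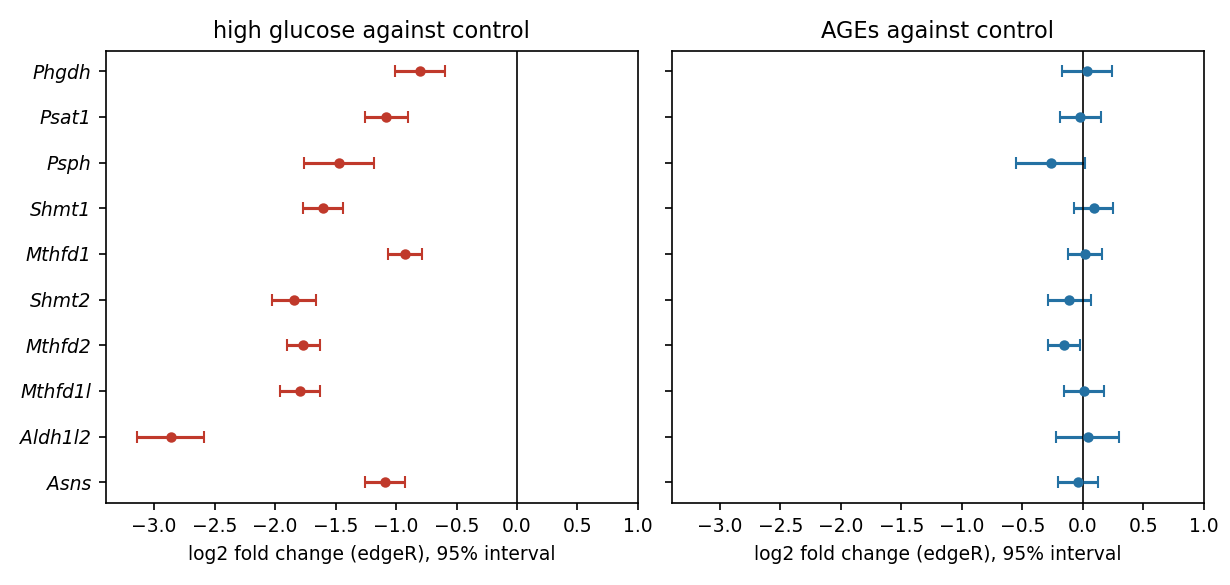
Log2 fold change of each enzyme with its 95% interval from edgeR, for high glucose against control (left) and AGEs against control (right), on the same axis range. All 10 intervals on the left lie below 0, from -0.80 for Phgdh to -2.86 for Aldh1l2, and on the right only the interval of Mthfd2 does not cover 0.

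Compared with each other, the treatments differed in all 10 genes. In AGEs against high glucose all 10 enzymes were called higher, where 19.7% of all genes were called higher. The change was called and at least 2-fold for 8 of them, against 5.29% of all genes, and in all 10 every AGEs library lay above every high glucose library, which held for 25.2% of all genes. Over all genes edgeR called 3481 higher and 3572 lower here, and limma on log2(FPKM + 1) called 2314 higher and 5509 lower, the 10 enzymes all higher. This comparison shares its high glucose libraries with the one against control, so its values are given only side by side. The log2 difference was 2.90 for Aldh1l2, 1.80 for Mthfd1l, 1.74 for Shmt2, 1.69 for Shmt1 and 1.61 for Mthfd2. It was 1.20 for Psph, 1.06 for Psat1, 1.05 for Asns, 0.94 for Mthfd1 and 0.83 for Phgdh. The highest adjusted p of the 10 was 0.000105, for Phgdh. In the AGEs libraries Aldh1l2 stood at 955, 888 and 769 CPM and Asns at 614, 568 and 561 CPM, each overlapping with its control libraries. With AGEs library 3, which stood apart, left out, all 10 were still called higher than in high glucose, and none was called against control.

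In 3 pairs of mitochondrial and cytosolic folate enzymes, the ratio was lower in every high glucose library than in every control library. The exact permutation test used for the ratios could not call this difference with 3 against 3 libraries. Ratios were taken within each library from FPKM, which scale fragments to transcript length and library size. The ratio of Mthfd1l to Mthfd1, the mitochondrial and cytosolic synthetases, was 1.40, 1.28 and 1.42 in control, 0.710, 0.784 and 0.760 under high glucose, and 1.43, 1.43 and 1.23 with AGEs. Mthfd1l therefore exceeded Mthfd1 in every control and AGEs library and was below it in every high glucose library. The ratio of Mthfd2 to Mthfd1 was 2.55 ± 0.13 in control (SD, n = 3), 1.42 ± 0.034 under high glucose and 2.26 ± 0.070 with AGEs. The AGEs libraries lay between the other groups without overlap. The ratio of Shmt2 to Shmt1 moved less, from 10.7 ± 0.33 in control to 9.10 ± 0.18 under high glucose and 9.36 ± 0.57 with AGEs (SD, n = 3), and the last 2 groups overlapped.

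Differences in log2 ratio between high glucose and control were -0.87 for Mthfd1l to Mthfd1, -0.84 for Mthfd2 to Mthfd1 and -0.24 for Shmt2 to Shmt1. In an exact two-sided permutation test over libraries each gave p = 0.1, the smallest that 3 against 3 allows, so none of the 9 ratio tests could pass 0.05 (Benjamini-Hochberg adjusted p 0.129 over the 9 tests). AGEs against control gave exact p = 0.1 for Mthfd2 to Mthfd1 and for Shmt2 to Shmt1, and 1 for Mthfd1l to Mthfd1. AGEs against high glucose gave exact p = 0.1 for both Mthfd1 ratios and 0.6 for Shmt2 to Shmt1.

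**Figure D3:**
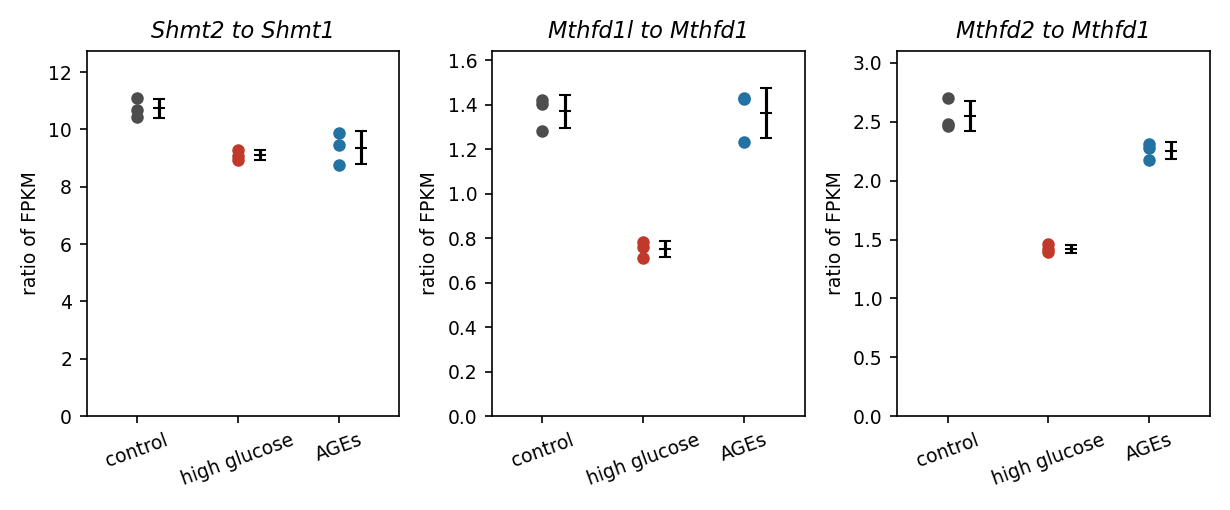
Ratio of FPKM within each library for 3 pairs of mitochondrial and cytosolic folate enzymes, with 1 point per library and the mean ± SD of each group beside it. Both Mthfd1 ratios are lowest in the 3 high glucose libraries, and Mthfd1l to Mthfd1 lies at 0.710 to 0.784 there against 1.23 to 1.43 in the other groups.

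Per length, 2 enzymes led in every group. In control, Shmt2 (419 ± 37.4 FPKM, SD, n = 3) and Phgdh (405 ± 34.6) had overlapping ranges, followed without overlap by Asns (189 ± 9.19), Psat1 (131 ± 1.46), Aldh1l2 (97.6 ± 10.01), Mthfd2 (79.7 ± 1.30), Psph (57.0 ± 7.45) and Mthfd1l (42.8 ± 1.78). Mthfd1l overlapped with Shmt1 (39.0 ± 2.34), and Mthfd1 (31.3 ± 1.27) was lowest. In high glucose Phgdh led alone (263 ± 10.4), followed by Shmt2 (132 ± 5.72). Next came Asns (100.2 ± 7.22), Psat1 (69.9 ± 0.980), and the overlapping Mthfd2 (26.4 ± 0.818) and Psph (23.3 ± 3.65). Mthfd1 (18.6 ± 0.247) was followed by Aldh1l2 (15.2 ± 2.05), Shmt1 (14.5 ± 0.742) and Mthfd1l (14.0 ± 0.588), which overlapped in that order. Aldh1l2 was the fifth of the 10 in control and 1 of the lowest 3 in high glucose. The order in AGEs was that of control except that Phgdh (408 ± 37.7) and Shmt2 (382 ± 17.5), whose ranges overlapped, changed places.

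Of the summed FPKM of the 10, Phgdh made up 27.1% ± 1.23 in control and 38.9% ± 0.853 under high glucose, and Shmt2 made up 28.1% ± 1.36 and 19.4% ± 0.390 (SD, n = 3). Aldh1l2 went from 6.57% ± 0.907 to 2.24% ± 0.31. The 10 genes together took 0.570% ± 0.0144 of all counts in control, 0.239% ± 0.00771 under high glucose and 0.548% ± 0.00331 with AGEs (SD, n = 3). The high glucose libraries, at 0.232% to 0.247%, lay far below the other 6, at 0.544% to 0.587%.

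Other folate genes did not move as a block. Beside each list's count stand the shares over all genes in high glucose against control, 19.7% called lower and 19.6% called higher. Of 18 listed enzymes and carriers 17 were tested, and in high glucose 6 fell, 3 rose and 8 were not called (median log2 fold change -0.17, against 0.03 for all genes). Slc19a1, the reduced folate carrier, fell by 1.24 on the log2 scale (44.2 ± 4.22 CPM in control, 18.8 ± 0.794 in high glucose, adjusted p 2.04e-05). Methionine synthase, Mtr, fell by 1.21 (adjusted p 6.90e-05), and Mtrr, the reductase that reactivates it, fell by 1.18 (adjusted p 0.000262). The proton-coupled folate transporter Slc46a1 rose by 0.69 (12.4 ± 1.55 to 19.9 ± 0.683 CPM, adjusted p 0.00403). On FPKM with limma the list had 4 genes called lower and 4 called higher, with a median of 0.01.

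Close relatives of 3 of the enzymes were picked out after the enzymes' values were seen. Of these, Mthfd2l and Aldh1l1 also belong to the folate list above, where Mthfd2l is 1 of the 3 that rose. Mthfd2l, the relative of Mthfd2, had 11.4 ± 1.14 CPM in control and rose by 0.46 in high glucose (adjusted p 0.0221), the opposite direction to Mthfd2. Aldh1l1, the cytosolic relative of Aldh1l2, was near the detection limit, with 0.551 ± 0.382 CPM in control and 0.619 ± 0.529 in high glucose (adjusted p 0.936). Asnsd1, a gene with an asparagine synthetase domain, fell by 0.69 (adjusted p 0.000431).

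Pathways that use the products of the 10 enzymes differed. Of 13 purine synthesis genes, 7 fell in high glucose, 1 rose and 5 were not called, with a median of -0.52. Atic, which uses formyl-tetrahydrofolate in the last steps of the ring, fell from 281 ± 13.7 to 131 ± 2.61 CPM (log2 fold change -1.09, adjusted p 4.63e-06). Impdh2 fell by 0.90, Prps1 by 0.70 and Adsl by 0.68. A list of 11 genes around serine and glycine breakdown also held genes of other steps. Of these 11, 8 were tested and 2 fell, a share near that of all genes called lower (19.7%). The called genes were Gcat, which makes glycine from a threonine product and fell 2.83-fold (140 ± 13.3 to 49.3 ± 0.839 CPM, adjusted p 2.34e-06), and Dld, a subunit shared by several dehydrogenase complexes, which fell by 0.65. Gldc, Sds and Tdh did not pass the filter.

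Of 14 genes of the methionine cycle and transsulfuration 13 were tested, 4 fell and 3 rose (median 0.07), counts not far from the shares of all genes called lower (19.7%) and higher (19.6%), and on FPKM with limma 3 fell and 6 rose. The transsulfuration enzymes went opposite ways. Cth, which cleaves cystathionine to cysteine, stood at 60.6, 54.6 and 58.6 CPM in control and 5.7, 6.9 and 5.5 CPM under high glucose, a 9.64-fold fall (adjusted p 3.93e-07). Cbs, which makes cystathionine from serine and homocysteine, rose 3.32-fold, from 24.7 ± 0.241 to 81.9 ± 11.1 CPM (adjusted p 3.27e-05). Spermidine synthase, Srm, fell by 1.61 and Ahcy, which splits adenosylhomocysteine, by 0.71.

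Amino acid enzymes next to ASNS held genes called in both directions. Of 18 genes of aspartate, glutamate, proline, alanine and arginine metabolism, 8 fell, 4 rose and 6 were not called in high glucose (median -0.08). On FPKM with limma the median was 0.07, and 7 fell and 6 rose. The shares over all genes were 19.7% called lower and 19.6% called higher, and the 4 that rose are near the latter. Got1, the cytosolic aspartate aminotransferase, fell from 302 ± 13.3 to 84.2 ± 5.31 CPM (3.59-fold). Both named proline synthesis enzymes fell, Aldh18a1 by 3.41-fold and Pycr1 by 4.88-fold. Glutamine synthetase, Glul, rose 1.94-fold, from 38.2 ± 2.36 to 73.9 ± 1.75 CPM (adjusted p 2.19e-05).

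Most of the ATF4 list fell in high glucose. Of 20 regulators and targets, all tested, 13 fell, 3 rose and 4 were not called (median -0.65). On FPKM with limma 12 were lower and 4 higher, with a median of -0.43. The shares over all genes were 19.7% called lower and 19.6% called higher. Ddit3, the stress transcription factor CHOP, stood at 1692, 1655 and 1668 CPM in control, 48.8, 50.3 and 42.8 CPM under high glucose, and 1569, 1614 and 1909 CPM in AGEs. This was a 35.3-fold fall in high glucose. Atf3, a further stress-induced factor, fell 7.13-fold, Fgf21, a stress hormone gene, 6.11-fold, and Trib3, a pseudokinase that curbs ATF4, 4.86-fold. Chac1, a glutathione-degrading enzyme, fell 2.13-fold.

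The Atf4 transcript itself varied between replicates. It stood at 1654, 1591 and 643 CPM in control, 660.4, 387 and 376 CPM under high glucose, and 1465, 792 and 846 CPM in AGEs, so that control and high glucose overlapped. The edgeR log2 fold change in high glucose was -1.45 (SE 0.39, adjusted p 0.0149). The call was lost when control library 1 or 2 or high glucose library 2 or 3 was left out (adjusted p 0.0507 to 0.0573). Ddit3 and Trib3 kept their high glucose calls in each of the 13 alternatives run. The protein was not measured.

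**Figure D4:**
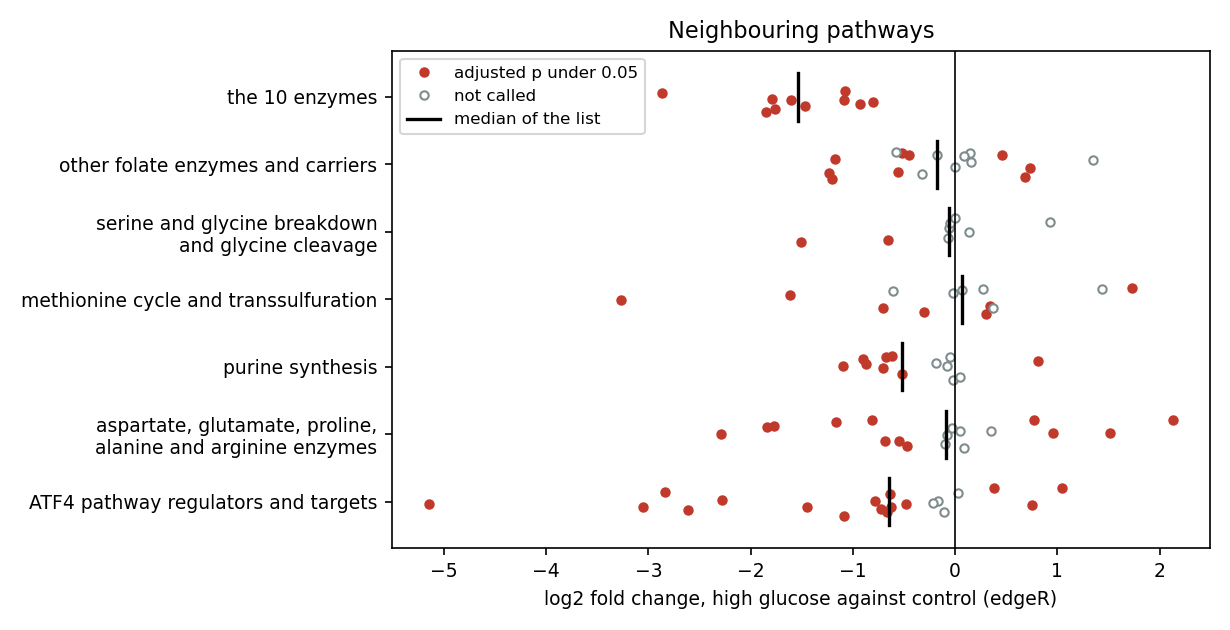
Log2 fold change in high glucose against control (edgeR) for every tested gene of the 10 enzymes and of 6 neighbouring lists, with filled points for adjusted p under 0.05, open points for genes not called and a bar at each list's median. The 10 enzymes lie wholly below 0 with a median of -1.54, whereas the other lists hold genes on both sides, with medians from -0.65 to 0.07.

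In AGEs against control none of the genes of these 6 lists was called by edgeR, and 24 of 89 tested had an unadjusted p under 0.05, a level that 12.4% of all genes reached. DESeq2 called 4 of them, named after their values were seen: Slc7a11, the cystine-glutamate antiporter (log2 difference 1.01; edgeR adjusted p 0.117), Adss (0.39), Ahcyl1 (0.24) and Atf5 (-0.39). Slc7a11 stood at 25.1 ± 5.01 CPM in control, 15.9 ± 1.93 under high glucose and 50.6 ± 7.60 with AGEs (SD, n = 3). Ddit3 differed from control by 0.02 on the log2 scale, Trib3 by -0.05, Chac1 by 0.12 and Atf4 by -0.33, with adjusted p from 0.771 to 0.948. Against high glucose, AGEs libraries had 11 of the 20 ATF4 genes called higher and 2 lower, and 10 and 1 of the 13 purine genes. For the 18 amino acid genes the counts were 7 and 5, and for the 17 folate genes 6 and 2. For the 13 methionine genes they were 4 and 1, and for the 8 tested genes of the breakdown list 2 and 2. Of all genes, 19.7% were called higher and 20.2% lower in this comparison, and the counts of the folate, methionine and breakdown lists are few genes away from those shares. On FPKM with limma the amino acid genes had 7 higher and 8 lower, the methionine genes 4 and 4. Cth was 9.46-fold higher in AGEs than in high glucose, Slc19a1 2.70-fold, Mtr 2.41-fold and Gcat 2.36-fold, and Cbs was 4.69-fold lower. The Atf4 call in this comparison (log2 difference 1.12, adjusted p 0.0428) was lost when high glucose library 2 or 3 or AGEs library 1 or 3 was left out and on FPKM with limma, with adjusted p up to 0.157.

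Genes with the profile most like Asns over the 9 libraries, by the root mean square difference of centred log2 CPM among 9330 genes with a mean of at least 10 CPM, were D6Wsu163e (0.066), Rragc (0.070), Prxl2c (0.071), Eef1a1 (0.071) and Ascc2 (0.074). The 9330 genes leave out predicted models, by symbols of Gm followed by digits or ending in Rik. The nearest of the other 9 enzymes were Mthfd1 (39th) and Psat1 (43rd). Nearest to Phgdh were Agpat2 (0.046), Cluh (0.050), Nol6 (0.057), Atxn2l (0.062) and Gtpbp6 (0.065), with Mthfd1 as the nearest enzyme (74th). Rragc went from 183 ± 6.42 to 84.95 ± 4.67 CPM under high glucose and stood at 181 ± 10.1 in AGEs, and Agpat2 went from 57.7 ± 4.95 to 32.5 ± 1.22 and stood at 58.2. Aldh1l2 was far from both, with a difference of 0.999 from Phgdh. These are descriptions of 9 libraries that share 3 group means.

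Summed levels of markers of other cell types were higher in the high glucose libraries than in control. Over all genes, 19.6% were called higher and 19.7% lower in that comparison. The summed level of 8 parietal epithelial markers was 1056 to 1104 CPM in control, 1966 to 2205 in high glucose and 1021 to 1246 in AGEs, with 4 of 8 called higher in high glucose and 1 lower. Nearly all of that rise was 1 gene, Cd24a, which went from 168 to 196 CPM in control to 1001 to 1147 in high glucose. Pax2, Epcam and Krt8 rose at lower levels, Cd44 fell, and Krt18 stood at 470.4 to 533 and 461 to 515 CPM. Of 9 tubular markers 4 were tested and 3 were called higher, with summed levels of 123 to 126, 356 to 397 and 121 to 159 CPM, of which Cdh16 made up most (96.1 to 101 in control and 302 to 327 in high glucose), and the defining markers Slc34a1, Aqp2 and Umod had 0 counts in all libraries. Summed endothelial markers went from 5.55 to 5.85 CPM in control to 12.4 to 15.1 in high glucose (2 of 3 tested called higher). Mesangial and fibroblast markers went from 35.8 to 40.1 to 52.3 to 59.6 (2 of 7). Leukocyte markers went from 80.0 to 87.5 to 135 to 151 (2 of 7, and 1 lower). The counts called in these last lists are few genes away from the shares over all genes. In the podocyte list 4 of 11 tested genes were called higher and 1 lower, with summed levels of 931 to 1248, 1221 to 1286 and 1358 to 1421 CPM. The part of these differences in the enzyme results was not tested. In bulk libraries, fewer cells that carry a transcript and less transcript per cell cannot be told apart.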

How the data were processed

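RNA was sequenced from 9 libraries of MCP5 cells, 3 per group. The authors deposited 1 table that gives each gene a read count and an FPKM value in every library, per the file headers. GRCm38, cutadapt 1.9 and FastQC are named in the submitters' processing notes. Which aligner, counter, annotation and strand setting were used is not given in the sources used here. In the deposited FPKM columns a count of 0 is written as 0.0001. Low counts fell on 4 and 8 more often than on 3 and 7 (9186 and 4896 entries against 2519 and 1632), so 1 fragment may have added more than 1 count.

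Counts of 17680 genes passing filterByExpr were fitted with edgeR 4.0.16 (R 4.3.3, quasi-likelihood, TMM, 3 group means, common biological coefficient of variation 0.278). The same fit was also run on simulated counts that gave every gene that common coefficient of variation. This served as a check of the code, and no result here rests on it. DESeq2 1.42.0, limma 3.58.1 on log2(FPKM + 1 or 0.1), RLE scaling, no filter, only the 6 libraries compared, a replicate block and leaving out each library were alternatives. Replicates of a group differed beyond sampling noise (chi-square per degree of freedom 47.6 to 110), so none was counted as a copy. Depth was 46284878 to 77242281 counts per library.

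The members and lists were chosen with earlier results of these data known. Named were all 10 enzymes, up to 4 called genes of smallest p per list, and Atf4, Ddit3, Trib3 and Chac1. Promoters came from RefSeq (GRCm38.p6), and protein sequences were not used here.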

Additional observations from a re-analysis of the deposited data

How the results depend on the processing

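In high glucose against control and in AGEs against high glucose, all 10 enzymes kept their direction and their call in each of the 13 alternatives (130 values a comparison, highest adjusted p 0.00106 and 0.00085). The number of all genes called in AGEs against control was 15 with edgeR, 325 with DESeq2 and 5 with the replicate block, and none of the 10 enzymes was called in any of these. Deviations from group means gave no sign that the numbers in the titles pair the libraries. Correlations over genes were -0.076 to 0.072 between same-numbered libraries and -0.065 to 0.065 between differently numbered ones. Whether same-numbered libraries were handled together is not stated, and these correlations cannot settle it. With the replicate block, 6322 genes were called in high glucose against control (6946 without) and 6390 in AGEs against high glucose (7053 without), all 10 enzymes among them in both.

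Signs of some estimates near 0 that no fit called turned, in AGEs against control and in 1 ratio of AGEs against high glucose. In high glucose against control, the medians of 3 lists turned on FPKM with limma (pseudocount 1): the folate list from -0.17 to 0.0084, the amino acid list from -0.085 to 0.068 and the breakdown list from -0.055 to 0.085. In AGEs against high glucose the folate list turned from 0.18 to -0.0082 and the methionine list from 0.17 to -0.032. On FPKM with limma (pseudocounts 1 and 0.1) Mthfd1 became -0.00455 and -0.00467, Mthfd1l -0.0135 and -0.0138, and Ddit3 -0.00475 and -0.00476. Leaving out 1 library gave ranges of -0.0599 to 0.11 for Phgdh, -0.11 to 0.025 for Psat1, -0.011 to 0.047 for Mthfd1, -0.042 to 0.061 for Mthfd1l, -0.031 to 0.12 for Aldh1l2, -0.071 to 0.21 for Chac1, -0.071 to 0.076 for Ddit3 and -0.10 to 0.014 for Trib3. For the log2 ratios it gave -0.00097 to 0.087 for Shmt2 to Shmt1 in AGEs against high glucose and -0.056 to 0.061 for Mthfd1l to Mthfd1 in AGEs against control. Without the 10 most abundant genes of each library in the denominator, the enzymes took 0.615% of counts in control, 0.2504% under high glucose and 0.591% with AGEs. The cause of these shifts was not tested, except that a smaller denominator raises a share. The number of libraries, 3 a group, limits the ratio tests, whose smallest p is 0.1.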
